A study of Rattus norvegicus with 12 samples.

Results

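Menthol against untreated control is the comparison of the 3 libraries made from ND7/23 cells given 100 μM menthol for 6 h with the 3 control libraries, which is 6 of the 12 libraries of the series. It was read over every gene with a mean of at least 0.5 FPKM over the 12 libraries, 11451 of the 21556 genes in the deposited table. FPKM is the number of read fragments on a gene scaled by gene length and by the mapped fragments of the library. ND7/23 is a line that was made by fusing neurons of rat dorsal root ganglia with N18Tg2, a mouse neuroblastoma. All 4 groups (control, menthol, Wnt3a at 100 ng/ml, and both agents together) were ND7/23 cells, and per the methods they were stimulated in DMEM with antibiotics and no serum named. The question was how TRPM8, the cold and menthol channel, acts on Wnt/β-catenin signaling in these cells, and the 6 libraries with Wnt3a serve here as a separate reading of menthol. The vehicle of the control cells is not given in the sources used here, and the sources do not say whether the sequenced cells had been differentiated with nerve growth factor. The labels do not say that the 3 libraries of a group came from separate cultures, so the p-values below measure only the spread between these libraries, which may be technical.

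Menthol opens TRPM8, a channel that lets sodium and calcium into sensory neurons, and it also acts on other channels such as TRPA1. Metallothioneins are small cysteine-rich proteins that bind zinc and copper, and their genes are switched on by the zinc sensor MTF1 through metal response elements. The integrated stress response is the program by which phosphorylated eIF2α favors translation of ATF4, which raises genes of amino acid synthesis, amino acid uptake and tRNA charging. Extracellular matrix, focal adhesions and the actin cytoskeleton form a linked system through which adherent cells hold on to their surface, and several of its genes are targets of SRF, YAP and TGF-β.

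The libraries held 36914010 to 38836269 reads on genes, as recovered from the FPKM steps, and 16983 to 17386 genes above 0. The control libraries held 38067998 to 38836269 reads and the menthol libraries 38216834 to 38514439. The tested gene with the fewest reads had a mean of 5.42 per library and the median gene 1354. The neuronal label was weakly borne by the markers. Of 36 markers of sensory and sympathetic neurons in the table, 5 reached the FPKM minimum, with *Uchl1* highest at a mean of 101 FPKM, and 11 had at most 3 reads in every library. *Prph*, the peripheral neuron filament, had 0 to 5 reads in the control and menthol libraries, and *Tubb3*, the neuronal tubulin, also had 0 to 5. Of 24 markers of fibroblasts and stroma, 17 reached the minimum, with *Vim* at a mean of 884 FPKM. *Trpm8*, the receptor of menthol, had 61, 67 and 88 reads in the control libraries and 71, 64 and 63 in the menthol libraries, or 0.189 to 0.274 FPKM, and was below the minimum. With no minimum its log2 fold change was −0.07 (SE 0.149, limma adjusted p = 0.977). No difference in *Trpm8* was found, and with an SE of this size a small one could be missed.

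The change with menthol was small and spread over many genes. By limma on log2(FPKM + 0.1), with Benjamini-Hochberg adjustment over all 11451 genes, 12 genes passed an adjusted p of 0.05, which is 0.105% of the genes tested. *Mt1* alone also changed more than 2-fold, 0.00873% of the genes. Of the 12, 2 rose (*Mt1* and *Bloc1s4*) and 10 fell: *Clic5*, *Eno3*, *Tgfb1i1*, *Aldh3a1*, *Pcolce*, *Krt7*, *Ogn*, *Actn1*, *Tnc* and *Il1rl1*. The number of genes depended on the fit, and 60 passed with limma voom on the recovered reads. Of the 12 genes, 9 still passed without menthol replicate 1, 4 without menthol replicate 2, 3 without menthol replicate 3, 3 without control replicate 1, 1 without control replicate 2 and 0 without control replicate 3, where 421 genes were higher and 469 lower at an unadjusted p under 0.05. The 0.1 FPKM added before taking logs makes the fold changes of scarce genes smaller than they are.

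*Mt1* (NCBI gene 24567), metallothionein 1, had the largest change of the 12. Its level was 158, 93.1 and 117 FPKM in the control libraries and 458, 313 and 324 FPKM in the menthol libraries. The lowest menthol library was above the highest control library, and replicate 1 was the highest of its group in both. *Mt1* rose by 1.59 on the log2 scale (SE 0.212, limma adjusted p = 0.0135). Its adjusted p ran from 3.40e-07 to 0.0831 over 14 alternatives and was over 0.05 without control replicate 2, without control replicate 3 and with no FPKM minimum, with log2 fold changes of 1.41 and 1.57 without those libraries. *Mt2A*, the other abundant metallothionein, was at 790, 568 and 659 FPKM in control and 1600, 1090 and 1170 FPKM with menthol. Its groups did not overlap either and its log2 fold change was 0.93 (SE 0.169), but it missed the threshold (limma adjusted p = 0.0691). *Mt1m*, a scarce member of the family, had 31, 21 and 25 reads in control and 100, 106 and 47 with menthol, and differed by 1.60 on the log2 scale (SE 0.404, limma adjusted p = 0.204). The metallothionein genes are close copies, and reads shared between them may have been split by the counting.

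The promoters of *Mt1* and *Mt2A* are shown because they carry the sequence through which metals are known to act on these genes. The 250 bases before each RefSeq start site in rat (build GRCr8, minus strand for both) are printed 5′ to 3′, with each match to the metal response element, TGCACNC or TGCGCNC on either strand, in capitals. The *Mt1* promoter is at chr19:10832976-10833225 and held 6 matches, 5 on the strand of the gene and 1 on the other.
Mt1: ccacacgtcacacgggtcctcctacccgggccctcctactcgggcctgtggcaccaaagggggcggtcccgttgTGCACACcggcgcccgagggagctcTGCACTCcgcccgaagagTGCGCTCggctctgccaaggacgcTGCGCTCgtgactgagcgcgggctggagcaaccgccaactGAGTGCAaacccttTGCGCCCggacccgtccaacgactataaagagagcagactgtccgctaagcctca
The *Mt2A* promoter is at chr19:10838709-10838958 and held 4 matches, 1 on the strand of the gene and 3 on the other.
Mt2A: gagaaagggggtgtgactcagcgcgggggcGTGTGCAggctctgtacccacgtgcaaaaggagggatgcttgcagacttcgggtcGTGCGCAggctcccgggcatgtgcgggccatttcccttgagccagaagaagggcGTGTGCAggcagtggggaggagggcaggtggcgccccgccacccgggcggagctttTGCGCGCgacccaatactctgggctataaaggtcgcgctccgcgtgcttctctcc
Of 33469 rat promoters of this length, 6883 (20.6%) held at least 1 match and 89 (0.266%) at least 4. A match is a description of the letters and not a shown binding site.

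**Figure D1:**
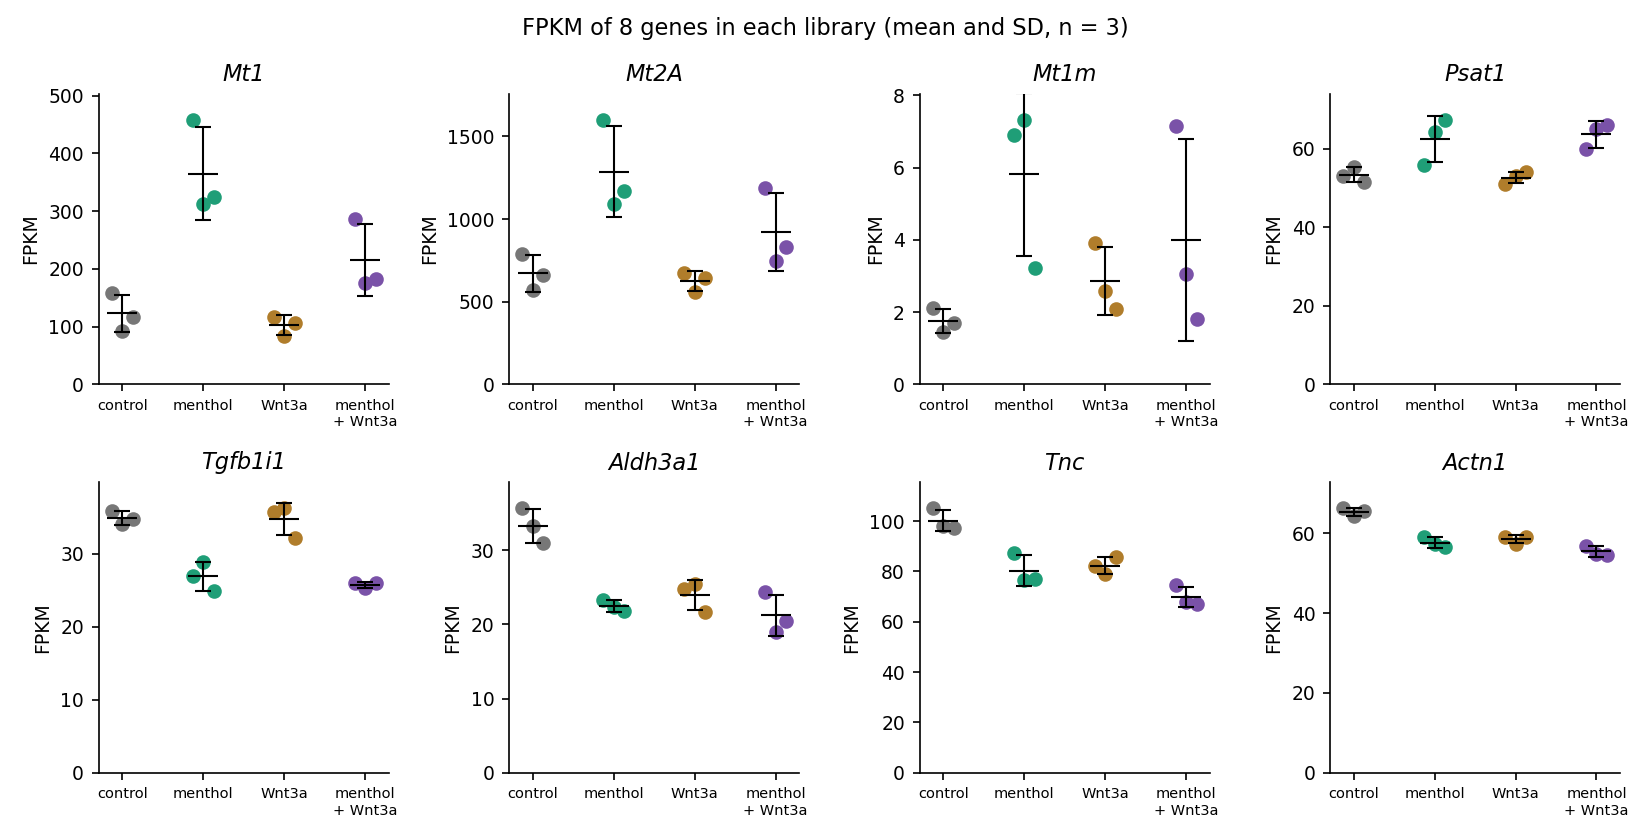
FPKM of 8 genes (y axes, linear and separate for each gene) in the 12 libraries by group (x axis), with points for libraries and bars for the mean ± SD of 3 libraries. *Mt1* is at 313 FPKM or above in the 3 menthol libraries and at 158 or below in the 3 control libraries, and *Tgfb1i1* is at 28.9 or below with menthol and 34.1 or above in control.

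The metal genes beyond the metallothioneins differed little. Of 25 tested genes of metal response and zinc transport, 16 were higher and 9 lower, with a median log2 fold change of 0.02. At an unadjusted p under 0.05, 5 were higher (*Mt1*, *Mt2A*, *Mt1m*, *Slc11a2* and *Slc30a9*) and 1 lower, and leaving out control replicate 1, control replicate 2 or menthol replicate 2 left 3 higher. Over all tested genes, 517 (4.51%) were higher and 552 (4.82%) lower at that level. *Slc11a2*, an iron importer, and *Slc30a9* were named after their values were seen. *Slc39a3*, a zinc importer, was the lower member, at 8.64, 8.34 and 8.21 FPKM in control and 8.3, 7.4 and 6.9 FPKM with menthol, with groups that overlapped. Of 20 list members with a RefSeq promoter, 10 (50%) held a metal response element, against 31.3% of the 8928 tested genes with a promoter. The list was put together for metal response, so this share says nothing about menthol.

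The 10 genes that fell did so by 9.72% to 32.3%, with no overlap between the menthol and control libraries in any of them. *Aldh3a1* (NCBI gene 25375), an aldehyde dehydrogenase of the response to aromatic compounds, was at 35.6, 33.2 and 31 FPKM in control and 23.3, 22.3 and 21.8 FPKM with menthol, and fell by 0.56 on the log2 scale (SE 0.082, limma adjusted p = 0.0209). *Krt7* (300242), a keratin of simple epithelia, went from 14.7, 13.2 and 16 FPKM to 11.7, 10.7 and 10.8 FPKM and fell by 0.40 (limma adjusted p = 0.031). *Clic5* (94272), a chloride channel protein that associates with actin, was at 40.4, 42.1 and 39.9 FPKM in control and 32.4, 34.5 and 34.2 FPKM with menthol, and fell by 0.28 (SE 0.034, limma adjusted p = 0.0135). In each of these genes the lowest control library was above the highest menthol library. *Eno3* (25438), the muscle enolase of glycolysis, was at 23.8, 23.7 and 25.4 FPKM in control and 19, 19.6 and 19.3 FPKM with menthol, and fell by 0.33 (SE 0.043, limma adjusted p = 0.0135). *Il1rl1* (25556), the receptor of interleukin 33, went from 137, 143 and 148 FPKM to 126, 121 and 121 FPKM and fell by 0.22 (limma adjusted p = 0.0468). The other gene that rose, *Bloc1s4* (364183), a subunit of the complex that forms lysosome-related organelles, was at 7.56, 7.73 and 7.16 FPKM in control and 9.74, 10.3 and 8.84 FPKM with menthol, and rose by 0.36 (SE 0.058, limma adjusted p = 0.034).

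Of the other 5 genes that fell, *Tnc* is on the list of matrix genes and *Tgfb1i1* on that of genes responsive to YAP, SRF and TGF-β. *Tgfb1i1* (84574), a focal adhesion protein also called Hic-5 that TGF-β induces, was at 35.9, 34.1 and 34.7 FPKM in control and 26.9, 28.9 and 24.9 FPKM with menthol, and fell by 0.38 (SE 0.053, limma adjusted p = 0.0193). *Tnc* (116640), the matrix glycoprotein tenascin C, was at 105, 98.1 and 97.4 FPKM in control and 87.4, 76.5 and 76.9 FPKM with menthol, and fell by 0.32 (SE 0.055, limma adjusted p = 0.0468). *Actn1* (81634), the actin crosslinker α-actinin 1, was at 66.2, 64.3 and 65.6 FPKM in control and 59.1, 57.3 and 56.5 FPKM with menthol, and fell by 0.18 (SE 0.030, limma adjusted p = 0.034). In all 3 genes every menthol library was below every control library, and replicate 1 was the highest control library. *Pcolce* (29569), an enhancer of procollagen processing, went from 243 to 248 FPKM in control to 220 to 222 FPKM with menthol and fell by 0.15 (limma adjusted p = 0.031). *Ogn* (291015), the small matrix proteoglycan osteoglycin, went from 15 to 15.5 FPKM to 11.8 to 12.9 FPKM and fell by 0.33 (limma adjusted p = 0.034).

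The matrix genes as a list were lower with menthol. Of 43 tested collagens, laminins and other matrix genes, 40 were lower and 3 higher, with a median log2 fold change of −0.092 against −0.002 over all genes. At an unadjusted p under 0.05, 16 (37.2%) were lower and 1 (2.33%) higher, beside 4.82% and 4.51% of all genes, and the number lower was 11 to 16 with 1 library left out. *Tnc* was the member that passed the adjusted p. Relative to the mean of the control libraries, the median level of the list was 0.031, −0.007 and −0.029 in the control libraries and −0.119, −0.086 and −0.093 in the menthol libraries on the log2 scale, so the groups were apart. *Col1a2*, a chain of type I collagen, was at 126, 123 and 119 FPKM in control and 109, 113 and 111 FPKM with menthol (log2 fold change −0.145, limma adjusted p = 0.106). *Col1a1*, the other chain of type I collagen, was at 7.83, 7.42 and 7.14 FPKM in control and 5.91, 6.31 and 5.93 FPKM with menthol (log2 fold change −0.30, limma adjusted p = 0.126). *Thbs1*, thrombospondin 1, was the most abundant of those named, at 819, 771 and 771 FPKM in control and 711, 700 and 689 FPKM with menthol (log2 fold change −0.17, limma adjusted p = 0.126). *Sparc*, a collagen-binding matrix protein, differed by −0.15 and *Nid1*, a basement membrane protein, by −0.22, both with groups that did not overlap. The member higher at that level was *Timp1*, an inhibitor of matrix proteases, at 636, 626 and 638 FPKM in control and 715, 645 and 669 FPKM with menthol. *Thbs1*, *Sparc* and *Nid1* were chosen after their values were seen.

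Markers of fibroblasts and stroma were lower along with the matrix list, and their part in it was not tested. Of the 17 tested markers, 16 were lower and 1 higher, 8 of them lower at an unadjusted p under 0.05, and their summed level was 1463 to 1478 FPKM in control and 1345 to 1390 FPKM with menthol. In a bulk sample, fewer cells of a type and less RNA per cell cannot be told apart. The lists share 10 genes, which is 23.3% of the matrix list and 58.8% of the markers. Without those 10, 30 of 33 matrix genes were lower, with a median of −0.08 and 11 lower at an unadjusted p under 0.05. Of the 24 markers, 1 had at most 3 reads in every library. *Vim*, the most abundant of these markers, was at 900, 919 and 929 FPKM in control and 883, 864 and 824 FPKM with menthol.

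The genes responsive to YAP, SRF and TGF-β were lower as a list, by a smaller median than the matrix genes. Of 30 tested, 24 were lower and 6 higher, with a median of −0.04, and 9 were lower and 1 higher at an unadjusted p under 0.05. Some actin genes of the list differed little, among them *Tpm2* (−0.001), *Zyx* (−0.010) and *Cnn3* (0.027), which were chosen after their values were seen. *Tagln*, the smooth muscle actin-binding protein transgelin, was at 5.27, 3.60 and 3.64 FPKM in control and 3.06, 2.51 and 2.32 FPKM with menthol (log2 fold change −0.63, SE 0.160, limma adjusted p = 0.204). *Flna*, the actin crosslinker filamin A, was at 178, 177 and 173 FPKM in control and 157, 150 and 150 FPKM with menthol (log2 fold change −0.21, SE 0.037, limma adjusted p = 0.068). *Cnn2*, the actin-binding calponin 2, was at 220, 210 and 211 FPKM in control and 197, 191 and 190 FPKM with menthol (log2 fold change −0.15, limma adjusted p = 0.0872). None of the 3 overlapped between groups, though none passed the adjusted p. *Vcl*, vinculin of focal adhesions, differed by −0.15 and *Myh9*, the heavy chain of non-muscle myosin, by −0.16, and *Srf*, the transcription factor itself, by −0.13. *Actb*, β-actin, often used as a loading control, was at 2960, 2910 and 2960 FPKM in control and 2770, 2600 and 2620 FPKM with menthol, 9.66% lower (limma adjusted p = 0.151). *Tagln*, *Vcl*, *Myh9* and *Actb* were chosen after their values were seen. Of 22 list members with a RefSeq promoter, 2 (9.09%), *Cnn2* and *Srf*, held a CArG box, the motif of SRF, on either strand, against 1.21% of tested genes. As the list was put together to hold SRF targets among others, this share says nothing about menthol.

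The genes of the integrated stress response were higher with menthol. Of 27 tested members, 24 were higher and 3 lower, with a median log2 fold change of 0.105, and 11 (40.7%) were higher and 0 lower at an unadjusted p under 0.05 by limma. With 1 library left out, the median ran from 0.09 to 0.14 and the number higher from 9 to 16, and by voom and the other settings from 11 to 13, with 0 lower throughout. None passed the adjusted p. The median level of the list was −0.001, 0.018 and −0.015 in the control libraries and 0.043, 0.115 and 0.127 in the menthol libraries on the log2 scale. Menthol replicate 1 lay nearest to control, the opposite of its place for *Mt1*. *Psat1*, of serine synthesis, was at 53.2, 55.4 and 51.6 FPKM in control and 56, 64.4 and 67.4 FPKM with menthol (log2 fold change 0.22, SE 0.059, limma adjusted p = 0.241). *Shmt2*, the mitochondrial enzyme that takes a one-carbon unit from serine, was at 63.7, 64.5 and 63.1 FPKM in control and 66.2, 71.8 and 72.2 FPKM with menthol (log2 fold change 0.135, limma adjusted p = 0.253). *Atf5*, a transcription factor translated by the same mechanism as ATF4, was at 103, 115 and 107 FPKM in control and 114, 135 and 135 FPKM with menthol, and 1 menthol value lay within the control range. *Atf4* itself was at 196, 198 and 194 FPKM in control and 202, 212 and 223 FPKM with menthol, 8.19% higher. *Asns*, asparagine synthetase, was 9.13% higher, *Slc7a5*, the large neutral amino acid transporter, 9.36% higher, and *Ppp1r15a*, the eIF2α phosphatase subunit GADD34, 7.55% higher, each with groups that did not overlap. *Atf4*, *Atf5*, *Asns*, *Slc7a5* and *Ppp1r15a* were chosen after their values were seen. The unfolded protein response did not go the same way, with 17 of 23 genes lower, a median of −0.03, and 1 higher and 3 lower at an unadjusted p under 0.05.

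Promoters of 6 stress response members are shown because they hold the amino acid response element through which ATF4 acts, TGATGNAA on either strand, in capitals. Each line is 60 bases from the 250 before the RefSeq start site (GRCr8), 5′ to 3′ on the strand of the gene.
Trib3, chr3:161275534-161275593, minus strand: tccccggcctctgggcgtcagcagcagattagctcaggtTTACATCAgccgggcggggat
Chac1, chr3:126795938-126795997, plus strand: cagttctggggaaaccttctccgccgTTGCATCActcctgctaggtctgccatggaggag
Slc7a1, chr12:11664428-11664487, plus strand: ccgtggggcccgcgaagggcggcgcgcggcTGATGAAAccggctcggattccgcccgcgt
Pck2, chr15:32997603-32997662, plus strand: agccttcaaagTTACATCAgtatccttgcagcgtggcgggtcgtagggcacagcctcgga
Nupr1, chr1:190645923-190645982, minus strand: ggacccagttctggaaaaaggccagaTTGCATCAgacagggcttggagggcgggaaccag
Aars1, chr19:55908344-55908403, plus strand: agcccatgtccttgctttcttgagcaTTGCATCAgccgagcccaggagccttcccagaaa
These 6 are 23.1% of the 26 tested members with a RefSeq promoter, against 1.72% of tested genes and 3.4% of all promoters. The list was put together from genes of the ATF4 program, so a higher share of its motif comes with the list and says nothing about menthol. *Pck2*, the mitochondrial PEP carboxykinase, differed by 0.21 on the log2 scale, *Nupr1*, a small stress-induced nuclear protein, by 0.20 and *Trib3*, a pseudokinase that ATF4 induces, by 0.12, each with groups that did not overlap. *Slc7a1*, a transporter of cationic amino acids, differed by 0.055, *Aars1*, which charges alanine tRNA, by 0.051 and *Chac1*, which degrades glutathione, by −0.008, all with groups that overlapped. Of the 6, which are named for the motif, 3 were higher at an unadjusted p under 0.05, beside 11 of the 27 tested members. *Trib3* was at 15.3, 14.4 and 15.3 FPKM in control and 16.7, 15.4 and 16.8 FPKM with menthol.

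**Figure D2:**
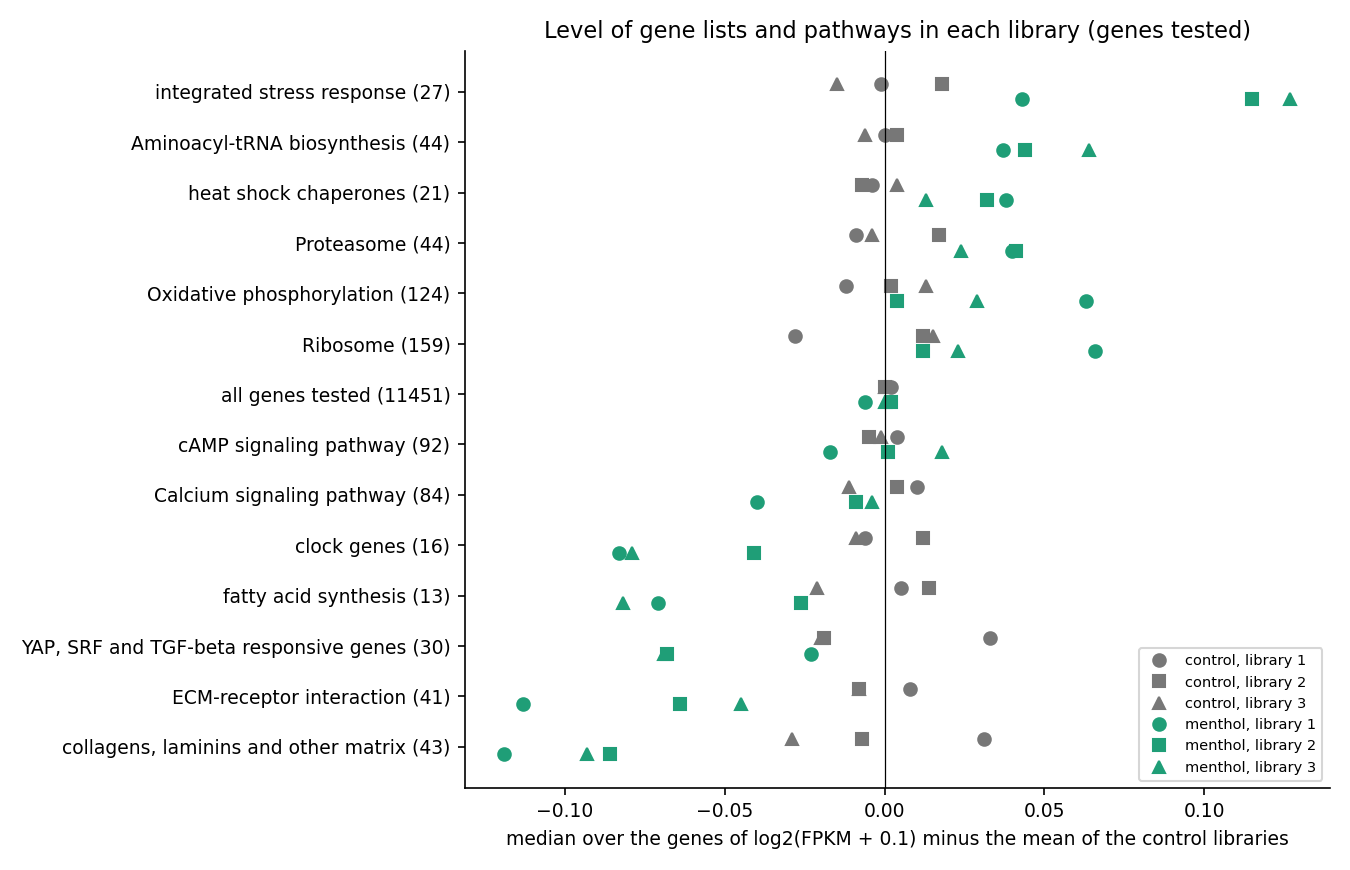
Median level of 13 gene lists and pathways and of all genes tested (rows, with the number of genes) in the 3 control and 3 menthol libraries, as log2(FPKM + 0.1) minus the mean of the control libraries (x axis), with 1 point per library. The integrated stress response lies at 0.043 to 0.127 with menthol and the matrix list at −0.119 to −0.086, while for ribosome and oxidative phosphorylation menthol replicate 1 stands highest.

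The enzymes that charge tRNA had the highest median of the 183 KEGG pathways that are not diseases and had at least 20 tested genes, except that the proteasome (0.046) was highest without control replicate 2 and also (0.041) without menthol replicate 3, where the tRNA enzymes took places 3 and 4. Of 44 genes of aminoacyl-tRNA biosynthesis, 30 were higher and 14 lower, with a median of 0.045, and 11 (25%) were higher and 0 lower at an unadjusted p under 0.05, or 5 higher without menthol replicate 3 and 6 without control replicate 1. A split made after the values were seen put the 21 cytosolic synthetases at a median of 0.07, with 18 higher, and the 20 mitochondrial genes at −0.02, with 9 higher. *Nars1*, which charges asparagine tRNA, was at 95.6, 99.3 and 97 FPKM in control and 104, 108 and 110 FPKM with menthol (log2 fold change 0.14, SE 0.035, limma adjusted p = 0.175). *Yars1*, which charges tyrosine tRNA, was at 90.9, 93.9 and 88.9 FPKM in control and 95.1, 104 and 103 FPKM with menthol (log2 fold change 0.14, limma adjusted p = 0.241). *Iars1*, which charges isoleucine tRNA, was 8.78% higher. By symbol, the pathway shares 2 genes with the stress response list. *Cars1* and *Gars1* of that list carry the symbols *Cars* and *Gars* in the deposited data and were not matched to it. They differed by 0.131 and 0.092 on the log2 scale, and were chosen after their values were seen.

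Ribosome, respiratory chain and proteasome genes were also slightly higher, the ribosome and respiratory chain genes mostly in menthol replicate 1. Of 159 ribosome genes, 119 were higher, with a median of 0.035, and 11 were higher and 2 lower at an unadjusted p under 0.05. Over all tested genes 4.51% were higher and 4.82% lower at that level, and of genes at 100 FPKM and over 8.01% and 5.39%. The number of ribosome genes higher was 6 without control replicate 1, 7 without menthol replicate 1 or with no FPKM minimum, 5 with the libraries centred on their medians and 20 with only the 6 libraries compared. Of the 87 with a ribosomal protein symbol, 79 were higher. Their median level was −0.030, 0.014 and 0.015 in the control libraries and 0.070, 0.017 and 0.020 in the menthol libraries, so menthol replicate 1 was high and the other menthol libraries were close to control replicates 2 and 3. Of 124 genes of oxidative phosphorylation, 93 were higher, with a median of 0.03, and 15 were higher and 1 lower at an unadjusted p under 0.05, or 9 higher without menthol replicate 1 or with no FPKM minimum, 10 with the libraries centred or without control replicate 1, and 23 without menthol replicate 2. The median level of this pathway was −0.012, 0.002 and 0.013 in the control libraries and 0.063, 0.004 and 0.029 in the menthol libraries, and the groups overlapped. Of the 13 respiratory chain genes on the mitochondrial genome, 10 were higher, and *CYTB*, cytochrome b, was at 3800, 3670 and 3770 FPKM in control and 3980, 3800 and 4090 FPKM with menthol. *Cox6a1*, a nuclear-encoded subunit of cytochrome c oxidase, was at 522, 521 and 520 FPKM in control and 588, 559 and 566 FPKM with menthol (log2 fold change 0.13, limma adjusted p = 0.279). Of 44 proteasome genes, 33 were higher, with a median of 0.035, and 4 were higher at an unadjusted p under 0.05. That number was 0 without menthol replicate 2, 2 with the libraries centred or without control replicate 1, control replicate 3 or menthol replicate 1, and 8 without menthol replicate 3. The median level of the proteasome was −0.009, 0.017 and −0.004 in the control libraries and 0.040, 0.041 and 0.024 in the menthol libraries, so the groups did not overlap. Many ribosomal protein genes have near-identical processed copies, so their levels are uncertain where reads could be split.

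The lowest median of the 183 pathways was that of ECM-receptor interaction, −0.08, and it was the lowest under all 14 alternatives as well. Of its 41 genes, 34 were lower and 7 higher, and 15 (36.6%) were lower and 0 higher at an unadjusted p under 0.05 by limma, or 10 to 14 with 1 library left out. It shares 18 genes with the matrix list, 41.9% of that list and 43.9% of the pathway. Of 138 focal adhesion genes, 88 were lower, 25 of them at an unadjusted p under 0.05 beside 3 higher, and without the ECM-receptor genes 62 of 107 were lower, with a median of −0.02. Cell adhesion molecules (47 of 64 lower, median −0.05), protein digestion and absorption, which holds collagens (22 of 34 lower, −0.06), nicotinate and nicotinamide metabolism (19 of 24 lower, −0.05), cytochrome P450 drug metabolism (15 of 27 lower, −0.04, but 0.005 at a mean FPKM of at least 1 and −0.002 without control replicate 3) and neuroactive ligand-receptor interaction (24 of 40 lower, −0.04) completed the low end. At a mean FPKM of at least 1, neuroactive ligand-receptor interaction was at −0.027 and took place 20 from the lowest. *Htr2a*, a serotonin receptor of the last of these, was at 1.99, 1.94 and 1.93 FPKM in control and 1.48, 1.43 and 1.56 FPKM with menthol (log2 fold change −0.37, limma adjusted p = 0.277). *Cdh3*, P-cadherin of the cell adhesion pathway, was at 16.8, 17 and 16.5 FPKM in control and 13.3, 14.3 and 15 FPKM with menthol (log2 fold change −0.24, limma adjusted p = 0.128). In all, 68 pathways had a median above 0 and 115 below, 130 were within 0.02 of 0, and 3 were beyond 0.05.

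**Figure D3:**
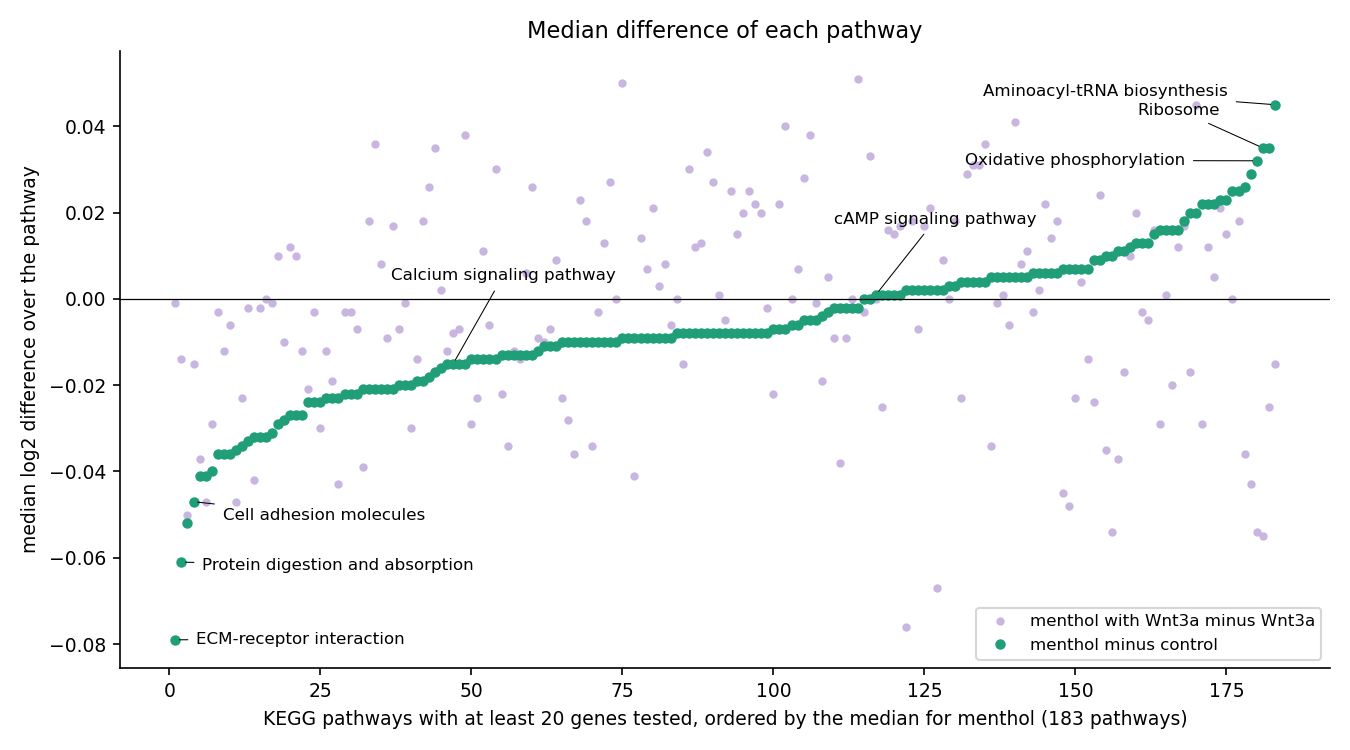
Median log2 fold change of the genes of each of 183 KEGG pathways (y axis, log2 scale), sorted by menthol against control (x axis, rank), with menthol with Wnt3a against Wnt3a beside it. The medians run from −0.079 to 0.045, and ribosome and oxidative phosphorylation, above 0 against control, are below 0 with Wnt3a present. For both pathways the libraries of the groups overlap in either reading.

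The signaling pathways that the study turns on stayed near 0. Of 92 tested cAMP signaling genes, 46 were higher and 46 lower, with 1 higher and 2 lower at an unadjusted p under 0.05 by limma. Of 84 calcium signaling genes, 36 were higher and 48 lower, with 3 higher and 4 lower at that level. Of 99 Wnt signaling genes, 44 were higher and 55 lower, with 5 higher and 2 lower. These shares are at or below those of all genes in this fit, except for the 5.05% of Wnt signaling genes that were higher, beside 4.51%, a number that ran from 0 without menthol replicate 2 to 8 without menthol replicate 1. Calcium signaling genes that were lower became 7 (8.33%) by voom, beside 5.46% of all genes, and 6 (7.14%) with a replicate block, without control replicate 2 or without menthol replicate 2, beside 5.26%, 3.94% and 4.74% of all genes. *Wnt10b*, a Wnt ligand, was at 11.9, 12.6 and 12.6 FPKM in control and 9.84, 11 and 10.8 FPKM with menthol (log2 fold change −0.23, limma adjusted p = 0.256). *Ccnd1*, cyclin D1, a target of β-catenin, was at 358, 385 and 366 FPKM in control and 371, 406 and 406 FPKM with menthol, and the groups overlapped. Of 14 tested Wnt targets and feedback genes, 9 were lower, 2 at an unadjusted p under 0.05 beside 1 higher. *Pde4a*, a phosphodiesterase that breaks down cAMP, was at 4.19, 4.79 and 4.38 FPKM in control and 5.20, 4.92 and 5.21 FPKM with menthol (log2 fold change 0.20, limma adjusted p = 0.384). Of 203 MAPK signaling genes, 13 (6.4%) were lower and 4 (1.97%) higher at an unadjusted p under 0.05. The number lower was 8 without control replicate 1 or menthol replicate 3, 16 without control replicate 2 and 20 (9.85%) by voom. The median level of the MAPK genes was 0.005, −0.002 and −0.001 in the control libraries and −0.035, −0.006 and −0.007 in the menthol libraries, a small shift with no overlap. Targets of CREB (15 tested, 0 higher and 1 lower at that level), immediate early genes (26 tested, 2 and 1), ERK feedback genes (16 tested, 1 and 0), calcium entry, stores and pumps (31 tested, 1 and 1) and TRP channels (5 tested, 0 and 0) held few such genes by limma.

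Lipid and clock genes were lower in small steps. Of 13 tested genes of fatty acid synthesis, 12 were lower, with a median of −0.06, and 5 (38.5%) were lower and 0 higher at an unadjusted p under 0.05. *Fads1*, a fatty acid desaturase, was at 162, 163 and 159 FPKM in control and 148, 153 and 149 FPKM with menthol (log2 fold change −0.105, limma adjusted p = 0.241). *Me1*, malic enzyme, which makes NADPH, was at 24.2, 26.8 and 26.3 FPKM in control and 22.3, 24.1 and 22.9 FPKM with menthol (log2 fold change −0.16, limma adjusted p = 0.253). Of 29 sterol genes, 24 were lower, with a median of −0.03 and 6 at an unadjusted p under 0.05, which became 1 without menthol replicate 3, 3 without menthol replicate 2 and 2 without control replicate 1. Of 16 clock genes, 13 were lower, with a median of −0.06 and 4 at an unadjusted p under 0.05, or 2 without control replicate 2 or menthol replicate 1. *Dbp*, an output gene of the clock, was at 15.5, 15.3 and 15.2 FPKM in control and 13.6, 13.4 and 12.2 FPKM with menthol (log2 fold change −0.23, limma adjusted p = 0.241). None of these members passed the adjusted p, though the groups did not overlap for the 3 named.

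The 15 higher and 15 lower genes of smallest p whose groups did not overlap also held genes on none of the gene lists. *Sphk1*, which makes sphingosine-1-phosphate and is among the calcium signaling genes, was at 29.4, 29.4 and 28.1 FPKM in control and 35, 33.5 and 32 FPKM with menthol (log2 fold change 0.21, SE 0.038, limma adjusted p = 0.0691). *Socs3*, an inhibitor of cytokine signaling, was at 224, 218 and 224 FPKM in control and 248, 249 and 240 FPKM with menthol (log2 fold change 0.14, limma adjusted p = 0.0967). *Osmr*, the oncostatin M receptor, was at 10.1, 10 and 10.1 FPKM in control and 12.8, 11 and 12.1 FPKM with menthol (log2 fold change 0.25, limma adjusted p = 0.136). These 3 missed the threshold. *Oga*, which removes O-GlcNAc from proteins, differed by 0.20, *Slc6a9*, a glycine transporter, by 0.33, and *Eif2s2*, the β subunit of eIF2, by 0.15. Of 21 heat shock chaperones 17 were higher, 3 at an unadjusted p under 0.05 and 0 lower by limma, among them *Hspa4l*, an Hsp110 chaperone, at 9.53, 10.2 and 9.71 FPKM in control and 11, 12.2 and 11.7 FPKM with menthol (log2 fold change 0.24, limma adjusted p = 0.156). Over all genes, the menthol values were all above the control values in 856 genes (7.48%) and all below in 960 (8.38%).

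The shifts went with the abundance of a gene, in size and in direction. Over all tested genes the median absolute log2 fold change was 0.05, beside a median SE of 0.061, and 5628 genes were higher and 5823 lower. The median size went down from 0.14 in the 818 genes at 0.5 to 1 FPKM to 0.08 in the 2820 at 1 to 5, 0.05 in the 4147 at 5 to 20, 0.04 in the 2942 at 20 to 100 and 0.03 in the 724 at 100 FPKM and over, and the median SE went down with it, from 0.196 to 0.033. The share of genes higher with menthol went from 41.7% in the lowest class to 65.1% in the highest. The median log2 fold change was −0.04, −0.02, −0.00, 0.01 and 0.02 from the lowest to the highest class. In the highest class the median level was −0.006, 0.003 and 0.004 in the control libraries and 0.036, 0.011 and 0.004 in the menthol libraries, so menthol replicate 3 equalled the highest control library. In the lowest class it was −0.002, 0.001 and 0.021 in control and −0.046, −0.040 and −0.014 with menthol, and the groups did not overlap. The share of genes higher at an unadjusted p under 0.05 was 2.69%, 2.02%, 4.39%, 6.73% and 8.01% from the lowest to the highest class. The share lower at that level also went up, by less, at 3.79%, 4.57%, 4.85%, 5.17% and 5.39%. Of the 12 genes past the adjusted p, 9 were at 20 FPKM or above. With Wnt3a present the medians of the classes were −0.04, −0.01, 0.01, −0.00 and −0.03. The highest class lay below 0 there, with libraries that overlapped between the groups.

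**Figure D4:**
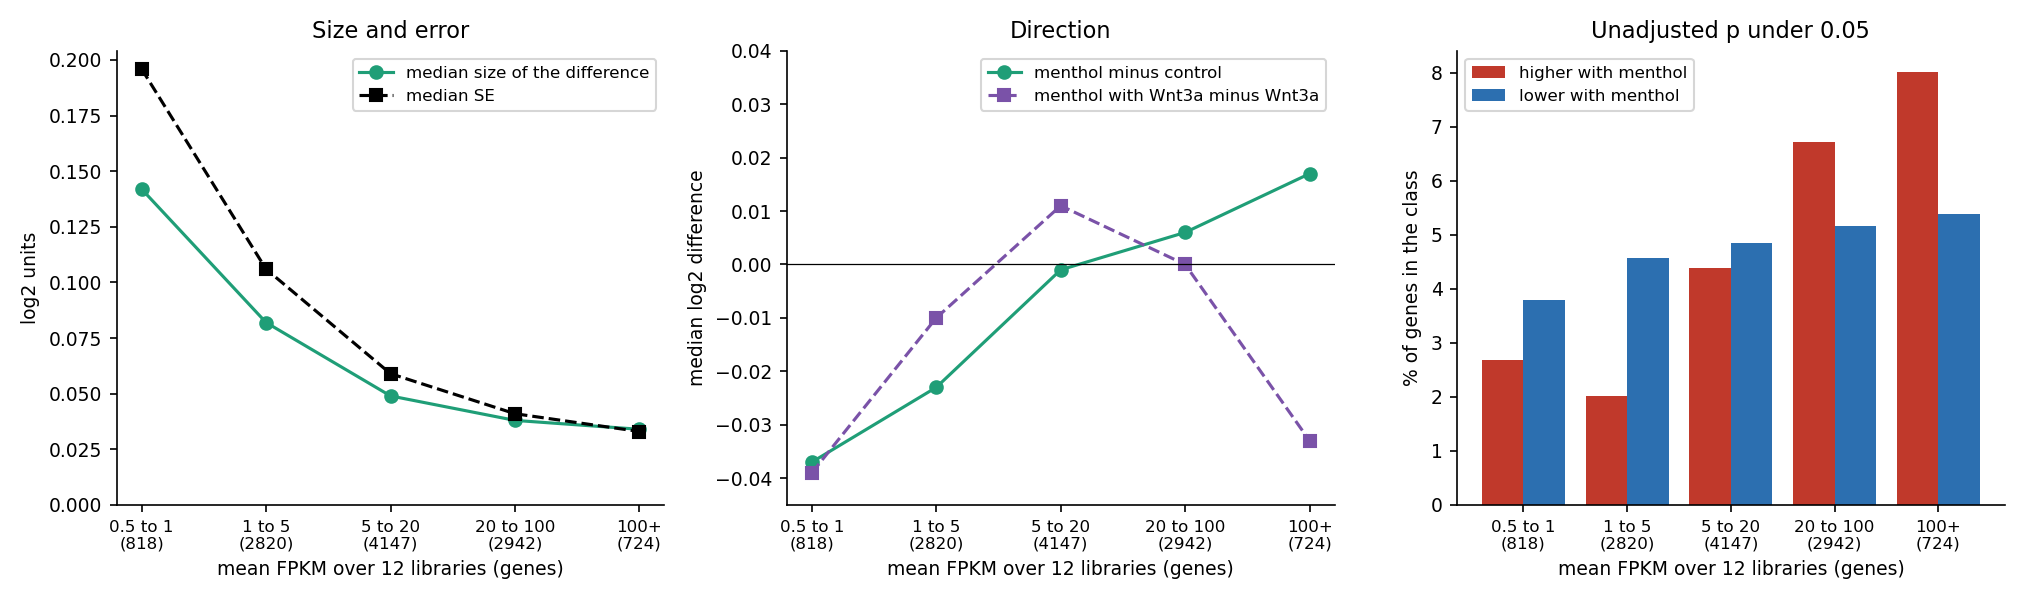
Menthol against control in 5 classes of mean FPKM (x axis), with the median absolute log2 fold change and the median SE, the median log2 fold change beside that of menthol with Wnt3a against Wnt3a, and the percent of genes higher and lower at an unadjusted p under 0.05 (y axes). Size and SE go down together from 0.142 and 0.196 to 0.034 and 0.033. From the lowest class to the highest, the percent higher goes from 2.69% to 8.01% and the percent lower from 3.79% to 5.39%.

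Genes that passed an unadjusted p of 0.05 were mostly changed by little. They numbered 1069, or 9.34% of the genes, with a median size of 0.15 on the log2 scale, which is 1.11-fold. Of these, 931 (87.1%) differed by less than 1.25-fold. Beyond 1.25-fold, 44 were higher and 94 lower. Of all 282 genes beyond 1.25-fold, with or without such a p, 261 (92.6%) were below 5 FPKM. *Fbxo32*, a ubiquitin ligase of muscle wasting, shows the low end, with 33, 35 and 38 reads in control and 17, 15 and 15 with menthol, or 0.807, 0.873 and 0.934 FPKM and 0.422, 0.373 and 0.370 FPKM (limma adjusted p = 0.0831). *Tent5b*, a poly(A) polymerase, was at 4.45, 3.62 and 4.50 FPKM in control and 3.14, 2.76 and 2.74 FPKM with menthol (log2 fold change −0.52, limma adjusted p = 0.126). *Cd74*, the invariant chain of antigen presentation, was at 1.63, 2.30 and 1.62 FPKM in control and 1.27, 0.982 and 1.43 FPKM with menthol, and was chosen after its values were seen.

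The libraries with Wnt3a gave a second reading of menthol in other samples. Menthol with Wnt3a against Wnt3a uses 6 libraries that the comparison with control does not, although all 12 share 1 estimate of the spread. Of the 1069 genes at an unadjusted p under 0.05 against control, 773 (72.3%) went the same way with Wnt3a present, beside 6524 (57%) of all tested genes. Of the 1069, 251 (23.5%) went the same way with an unadjusted p under 0.05 there, and 27 (2.53%) went the other way at that level. Over all genes, 816 (7.13%) were higher and 844 (7.37%) lower with Wnt3a at that level, and 6 (0.0524%) passed an adjusted p of 0.05. Across the 11451 genes, which are not independent replicates, the log2 fold changes of the pair of comparisons had a Pearson r of 0.14. The share going the same way was 76.8% for the genes lower with menthol and 67.5% for the higher ones. By abundance it was 58.5%, 67.2%, 72.3%, 79.1% and 64.9% from the lowest class to the highest.

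Of the 12 genes past the adjusted p, 11 went the same way with Wnt3a and 10 of these did so at an unadjusted p under 0.05. *Tgfb1i1* was at 35.7, 36.2 and 32.2 FPKM with Wnt3a and 26, 25.3 and 26 FPKM with menthol and Wnt3a, and fell by 0.43 (limma adjusted p = 0.00963). *Il1rl1* fell by 0.30 (limma adjusted p = 0.00963), *Ogn* fell by 0.37 (limma adjusted p = 0.0143) and *Eno3* fell by 0.285 (limma adjusted p = 0.0253) in the same libraries. *Mt1* was at 117, 83.1 and 106 FPKM with Wnt3a and 287, 176 and 182 FPKM with both (log2 fold change 1.05, limma adjusted p = 0.076). *Mt2A* was at 673, 556 and 646 FPKM with Wnt3a and 1190, 745 and 828 FPKM with both (log2 fold change 0.53, limma adjusted p = 0.195). For both metallothioneins every library with both agents was above every library with Wnt3a, and replicate 1 was again the highest of each group. *Mt1m* overlapped there, at 3.91, 2.57 and 2.08 FPKM with Wnt3a and 7.15, 3.06 and 1.80 FPKM with both. *Aldh3a1* was at 24.7, 25.4 and 21.6 FPKM with Wnt3a and 24.3, 19 and 20.4 FPKM with both, an overlap. *Bloc1s4* had a log2 fold change of −0.05 with Wnt3a, and was the 1 of the 12 that went the other way.

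**Figure D5:**
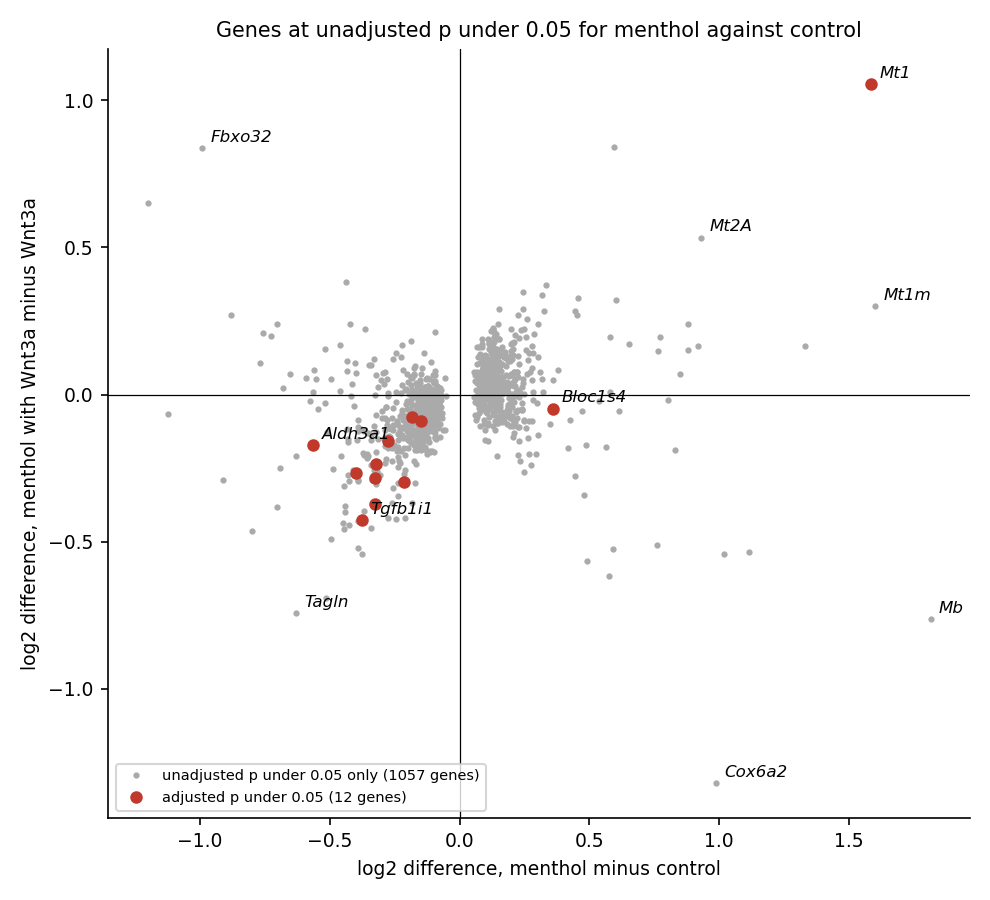
Log2 fold change of menthol with Wnt3a against Wnt3a (y axis) against that of menthol against control (x axis) for the 1069 genes at an unadjusted p under 0.05 against control, each point a gene, with the 12 genes past the adjusted p marked. Of the points, 773 lie in the quadrants of equal sign, and 11 of the 12 marked genes do.

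With Wnt3a present, the integrated stress response had a median of 0.098, with 23 of 27 genes in the same direction as against control and 13 higher at an unadjusted p under 0.05, and *Psat1* had a log2 fold change of 0.27 (limma adjusted p = 0.0836). The 21 cytosolic tRNA synthetases had a median of 0.08, with 15 higher. The genes responsive to YAP, SRF and TGF-β had a median of −0.06, with 12 lower and 6 higher at an unadjusted p under 0.05, and *Actb* had a log2 fold change of −0.165. The matrix list had a median of −0.02, with 24 of 43 genes in the same direction and 4 lower at an unadjusted p under 0.05, and ECM-receptor interaction had a median of −0.001. *Col1a1* had a log2 fold change of −0.06 and *Thbs1* one of −0.01 there. Ribosome (−0.055), oxidative phosphorylation (−0.054) and proteasome (−0.025) had medians below 0 with Wnt3a, against medians above 0 without it. In each of these sets the median levels of the libraries with Wnt3a and with both agents overlapped. For the ribosome they were 0.008, 0.043 and −0.059 with Wnt3a and −0.033, −0.060 and −0.077 with both. At an unadjusted p under 0.05, 28 ribosome genes were lower and 2 higher there, 25 and 1 of oxidative phosphorylation, and 6 and 0 of the proteasome by limma. No gene passed the adjusted p of the interaction by limma, while 800 (6.99%) had an unadjusted p under 0.05 for it, and voom also gave 0. The difference of the 2 readings was not tested for a list as a whole.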

How the data were processed

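The series holds 12 RNA libraries of ND7/23 cells in 4 groups of 3, and group and replicate number came from the sample labels. Per the methods, the authors used the VAHTS Universal V6 kit and 150 bp paired ends, with fastp as read filter, HISAT as aligner and HTSeq-count as counter, and they deposited FPKM values computed from these for 21556 genes. The submitters' processing notes name mRatBN7.2 and R 3.2.0. These reads come from a rat and mouse hybrid, and how reads of mouse transcripts were assigned is unknown. The authors' own comparisons used DESeq2 and are not used here. FPKM holds no counts, but the steps of its values gave whole reads in 21556 of 21556 genes (largest relative distance from a whole number 1.0e-15). For 1804 genes above 0 in 1 library only, this rests on 1 value. Read totals cover counting error only.

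The test was limma 3.58.1 in R 4.3.3, two-sided, on log2(FPKM + 0.1), with at least 0.5 FPKM as the mean of 12 libraries, 4 groups in 1 fit, a variance trend, no block for replicate number, and Benjamini-Hochberg adjustment over 11451 genes. In the text, "rose" and "fell" stand for an adjusted p under 0.05 alone. Data were simulated for menthol against control (11435 genes), with the same relative spread beyond counting error set for every gene. There, 72 of 79 genes changed 1.5-fold, 53 of 53 changed 2.5-fold and 62 of 62 changed 4-fold passed, as did 11 of 11241 unchanged genes. Gene lists and KEGG pathways from the deposited pathway column (269 with at least 20 tested genes, 183 of them not diseases) are described by counts and medians, with no set test. Level per library is the median over genes of log2(FPKM + 0.1) minus the control mean.

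The comparison, gene lists, motifs and rule for names were chosen with earlier results of these data known. The rule named every gene past the adjusted p, the 15 higher and 15 lower genes of smallest p whose groups did not overlap, up to 2 genes in each direction of each list, up to 3 genes of each of the 6 highest and 6 lowest pathways and of 7 others, the gene of smallest p in each direction in each abundance class, and *Trpm8*. Other genes are marked as chosen after their values were seen. Alternatives were pseudocounts of 0.01 and 1, at least 1 FPKM or no minimum, libraries centred on their median, only the 6 libraries compared, the replicate number as a block, voom on the recovered reads, and each library left out. Promoters are RefSeq sequences of GRCr8, a build other than that of the reads, matched by symbol or gene number for 8928 tested genes. Some genes are not reported here.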

Additional observations from a re-analysis of the deposited data

Results flagged for a closer look

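In 3 named genes every menthol library moved one way against every control library while every library with both agents moved the opposite way against every Wnt3a library. Over all 11451 genes 62 (0.541%) did so, and the named genes were partly chosen for groups that do not overlap. *Fbxo32*, a ubiquitin ligase of muscle wasting, had a log2 fold change of −0.992 for menthol against control and 0.837 for menthol with Wnt3a against Wnt3a. Its reads were 33, 35 and 38 in control, 17, 15 and 15 with menthol, 16, 15 and 13 with Wnt3a, and 21, 37 and 33 with both. *Ndufc2*, a subunit of respiratory complex I, had log2 fold changes of 0.095 and −0.100. It was at 102, 105 and 100 FPKM in control, 112, 106 and 111 FPKM with menthol, 111, 108 and 107 FPKM with Wnt3a, and 104, 101 and 99.3 FPKM with both. *Gadd45b*, a stress gene that CREB and NF-κB induce, had log2 fold changes of −0.186 and 0.183, from 8.67 to 9.17 FPKM in control, 7.12 to 8.51 FPKM with menthol, 7.35 to 8.65 FPKM with Wnt3a and 8.86 to 9.79 FPKM with both. The interaction was tested by limma over all 11451 genes, and 0 genes passed its adjusted p, with 800 at an unadjusted p under 0.05. The smallest adjusted p was that of *Fbxo32*, 0.0956, and it was 0.715 for *Ndufc2* and *Gadd45b*. In each gene the Wnt3a libraries lay beyond the control libraries on the same side as the menthol libraries.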

How the results depend on the processing

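Against 12 genes past the adjusted p by limma and 1 also past 2-fold, no FPKM minimum gave 2 and 0, only the 6 libraries compared gave 3 and 1, voom gave 60 and 1, and 1 library left out gave 0 to 10 and 0 to 2. Without control replicate 1, which gave the 2 past 2-fold, 3 of the 12 genes still passed. Over all genes, same-numbered libraries correlated at −0.00753, 0.012 and −0.0551 for control and menthol, and at 0.0717, 0.0137 and 0.0665 for Wnt3a and both agents. Libraries of unlike number ran from −0.0826 to 0.0583. These values cannot settle whether the numbers pair the samples, and for *Mt1* and *Mt2A* replicate 1 was the highest of every group. A block for the number gave 21 genes past the adjusted p and 2 also past 2-fold, with 11 of the 12 among the 21. With no minimum, genes at an unadjusted p under 0.05 went from 517 to 715 higher and from 552 to 844 lower, of 21556 genes (3.32% and 3.92%), and centring the libraries gave 429 higher and 613 lower. Genes whose groups do not overlap numbered 1349 to 1609 higher and 1482 to 1607 lower with 1 library left out, where 3 are set against 2. The share in the same direction with Wnt3a was 67.4% with no minimum and 65.8% to 76.8% with 1 library left out. Of 2078 values of the 149 named genes under the alternatives, 1966 kept their direction and side of the threshold, 77 lost the adjusted p, 35 gained it, and 0 changed direction. All 77 losses fell on the 12 genes past the adjusted p, as the other named genes had none to lose. Most named genes were chosen for a small p in these same libraries, so their kept direction and side say little about stability.

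With 3 libraries a group, an exact permutation test cannot go below p = 0.1, so all tests rest on limma's shared estimate of the spread. In the simulated data 7 of 79 genes changed 1.5-fold were missed, and most shifts described are smaller. The simulation gave every gene the same relative spread beyond counting error, so its rates do not carry over to single genes here. FPKM is relative, so a rise of abundant genes lowers all others. The genes under 5 FPKM hold nearly all large fold changes and the largest errors.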

Other observations

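Muscle genes at low read counts stood apart in single libraries. Of 38 markers of skeletal and cardiac muscle, 9 reached the FPKM minimum, with *Tnnt3* highest at a mean of 7.38 FPKM. Of the 9, 5 were higher and 4 lower with menthol, 2 higher and 1 lower at an unadjusted p under 0.05, and their median of 0.12 ran from −0.03 to 0.27 with 1 library left out. *Mb*, myoglobin, was counted 20, 12 and 3 times in the control libraries, 74, 29 and 38 times in those with menthol, 65, 28 and 13 times in those with Wnt3a, and 18, 3 and 49 times in those with both agents. *Myl2*, the ventricular myosin light chain, was counted 20, 27 and 15 times in control, 64, 52 and 34 times with menthol, 68, 59 and 24 times with Wnt3a, and 33, 14 and 60 times with both. The higher libraries of both genes were found in groups with and without menthol, and these genes were chosen after their values were seen. Cardiac muscle contraction, among the highest pathways (34 of 49 genes higher, median 0.029), shares 26 genes with oxidative phosphorylation, and of its other 23 genes 10 were higher and 13 lower. Its median level was −0.001, −0.005 and 0.009 in the control libraries and 0.071, 0.006 and −0.010 in the menthol libraries. The groups overlapped, and menthol replicate 1 stood highest.

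Proliferation genes held few genes at an unadjusted p under 0.05, and the median levels of their lists overlapped between control and menthol libraries. Of 44 genes of DNA replication and S phase, 27 (61.4%) were lower, with a median of −0.02 and 1 (2.27%) at that p. Of 38 mitosis genes 27 (71.1%) were lower, with a median of −0.02 and 1 (2.63%) at that level. Over all genes 50.9% were lower, 4.82% at that level. With 1 library left out, both medians crossed 0. *Ube2c*, which marks mitotic cyclins for destruction, was at 46, 44.8 and 43.3 FPKM in control and 39.9, 41.9 and 39.6 FPKM with menthol.

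Interferon-stimulated genes were lower in 17 of 21, with a median of −0.04. At an unadjusted p under 0.05 by limma, 2 (9.52%) were lower and 0 higher, beside 4.82% and 4.51% of all genes. *Isg15*, a ubiquitin-like protein, was at 61.8, 61 and 62.7 FPKM in control and 59.3, 58.7 and 55.2 FPKM with menthol. *Oasl*, of the oligoadenylate synthetase family, was at 20.8, 20.5 and 20.6 FPKM in control and 17.8, 19.4 and 18.8 FPKM with menthol. For both genes the groups did not overlap. Xenobiotic response genes were lower in 9 of 12, with 3 at an unadjusted p under 0.05, among them *Aldh3a1* and *Ugt1a7c*, a glucuronosyltransferase whose gene shares exons with its neighbours, at 7.36, 6.44 and 7.75 FPKM in control and 6.27, 5.69 and 5.72 FPKM with menthol.

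NRF2 targets were higher in 18 of 26, with a median of 0.04 and 2 higher and 1 lower at an unadjusted p under 0.05. Hypoxia genes were lower in 14 of 21 (1 higher and 3 lower at that level), while *Bnip3*, a mitophagy receptor of that list, was at 136, 135 and 135 FPKM in control and 148, 147 and 141 FPKM with menthol. Glycolysis (23 tested, 1 higher and 2 lower at that level), p53 targets (20 tested, 1 and 2), FoxO targets (16 tested, 1 and 2), the cAMP enzymes and PKA (22 tested, 2 and 2), BMP and Notch targets (10 tested, 0 and 0), cytokines and NF-κB targets (23 tested, 0 and 1), and synaptic and neuropeptide genes (15 tested, 0 and 0) had medians within 0.04 of 0. *Gdf15*, a stress cytokine of the p53 list, was at 6.49, 7.66 and 6.24 FPKM in control and 7.8, 8.26 and 9.22 FPKM with menthol.

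Few markers of other cell types were expressed. Of the tested markers, 5 of 6 for glia, 5 of 5 for immune cells, 2 of 2 for epithelium and 2 of 2 for endothelium and blood were lower with menthol, with 2, 2, 1 and 0 at an unadjusted p under 0.05. The neuron markers were lower in 4 of 5, with 0 at that level by limma. The 338 non-coding genes tested had a median of −0.02, with 10 higher and 17 lower at that level.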
